A study of Rattus norvegicus with 48 samples.

Results

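The miRNA precursor mir-126a gives rise to rno-miR-126a-3p and rno-miR-126a-5p, its 3p and 5p strands, and both were followed here across a rat liver study of thioacetamide (TAA), a hepatotoxic carcinogen. The members were every mature miRNA in the raw count table whose name begins with rno-miR-126, which gave 3 names among 664 that had a read: the 2 strands and rno-miR-126b. Both strands were among the 301 miRNAs that passed the filter on low values (at least 5 reads per 1000000, RPM, in at least 3 of the 48 libraries) and were tested, and miR-126b did not pass. Liver small RNA was sequenced from 48 male Sprague-Dawley rats, 3 in each of 16 groups, with 1 library per rat. Dosed rats received TAA daily at 4.5 mg/kg (low dose), 15 mg/kg (middle dose) or 45 mg/kg (high dose) for 3, 7, 14 or 28 days (written as 3-d, 7-d and so on), and the 4 control groups received vehicle (0 mg/kg) for the same times. The labels name no genetic modification in any group, and each library came from a section of whole liver.

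The gene for miR-126 lies inside Egfl7, a gene of endothelial cells, and the miRNA is best known from blood vessels. Its 3p strand is known to repress Spred1, Pik3r2 and Vcam1, which damp growth factor signalling or mediate leukocyte adhesion, and its 5p strand is known to repress Dlk1, an inhibitor of endothelial proliferation. In liver the sinusoids are lined by a specialised endothelium, which lies next to the hepatocytes and stellate cells that TAA injures and activates.

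The mature sequences are shown because the strands were counted, compared and expressed as a ratio throughout. They were taken from RefSeq on the GRCr8 rat assembly, which is not the build of the study, and all 3 names were matched. The capitals mark the seed, bases 2 to 8 from the 5′ end, through which a miRNA mainly recognises its targets.
rno-miR-126a-5p: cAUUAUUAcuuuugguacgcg
rno-miR-126a-3p: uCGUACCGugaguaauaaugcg
rno-miR-126b: uACCAAAAguaauaaugugcug
The miR-126a-5p arm of 21 bases lies at chr3:29813182-29813202 on the plus strand and the miR-126a-3p arm of 22 bases at chr3:29813219-29813240 on the plus strand, with 16 bases between them and both inside the span of Egfl7. The 22 bases of miR-126b lie at chr3:29813177-29813198 on the minus strand, where 17 of them are antisense to miR-126a-5p. No seed is shared among the 3, and 0 other rat miRNAs of the 693 mature sequences in that reference carry one of these seeds.

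The endothelial label could not be checked against isolated cells, because every library is whole liver. As a check of the tissue, miR-122-5p, the hepatocyte miRNA, had a median of 35378 upper quartile normalized RPM, and the summed level of 5 liver parenchyma miRNAs was between 254832 and 454919 RPM in 47 libraries. In bulk liver, fewer cells of a type and less miRNA per cell cannot be told apart. The libraries held 293331 to 14906217 counts each (median 10237542). The lowest total, control 3-d replicate 1, stood apart, since the next library had 4829217 counts, its 5 liver parenchyma miRNAs summed to 124790 RPM and its 4 red blood cell miRNAs summed to 81096 RPM against 786 to 9240 RPM in the other 47. Results of the strands at 3-d are therefore given with and without it, and those of the miRNA lists below only with it.

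Both strands were among the abundant miRNAs of the liver, and the 5p strand exceeded the 3p strand in all 48 libraries. The count of miR-126a-3p was between 634 and 109794 with a median of 52527, and that of miR-126a-5p between 1788 and 314375 with a median of 177360. By median RPM, which was 17409 for the 5p strand and 5124 for the 3p strand, they ranked 14 and 25 of the 301 tested miRNAs. The antisense miR-126b was hardly seen: 76 reads in all, 0 in 12 libraries, 6 at most and never above 0.613 RPM. In control 3-d replicate 1 its count of 0 allows up to 10.2 RPM (3 counts of the total, counting error only).

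Levels in the text are RPM after upper quartile normalization, which scales each library by the upper part of its count distribution, and each group is given as mean ± SD (n = 3 rats). The 3p strand varied less than the median miRNA: its SD over the 48 libraries was 0.31 on the log2 scale, against a median of 0.46 over the 301 tested miRNAs, which placed it 48 from the least variable. Most of the 301 were less abundant, and no comparison at like abundance was made. Without control 3-d replicate 1 its SD was 0.23, against a median of 0.38 and at place 20. The 5p strand had an SD of 0.37 at place 97, and 0.27 at place 50 without that library.

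**Figure D1:**
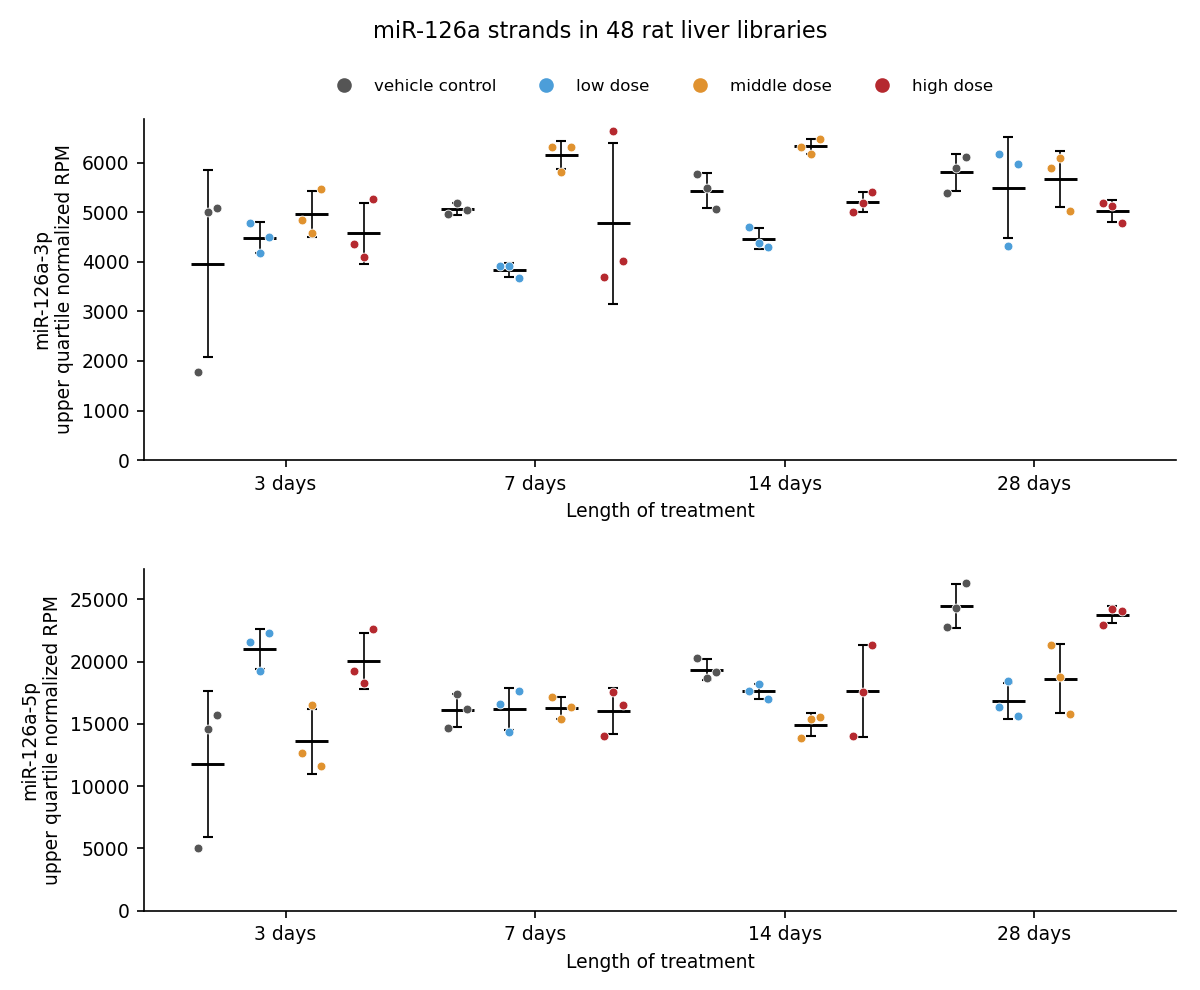
Upper quartile normalized RPM (y axes, from 0) of miR-126a-3p (upper panel) and miR-126a-5p (lower panel) in every library by length of treatment and dose; points are single rats, bars the mean and whiskers the SD of 3 rats. The control library at 1787 RPM (3p) and 5040 RPM (5p) at 3 days lies below all others, and control 5p is highest at 28 days.

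Across the 16 groups the mean level of miR-126a-3p ran from 3834 ± 148 RPM in low dose 7-d to 6326 ± 151 RPM in middle dose 14-d, a 1.65-fold range. Each of the 15 pairs of neighbouring groups in that order had overlapping values. From highest to lowest the means were 6326 RPM in middle dose 14-d, 6148 in middle dose 7-d, 5801 in control 28-d, 5669 in middle dose 28-d, 5493 in low dose 28-d, 5436 in control 14-d, 5201 in high dose 14-d and 5063 in control 7-d. They continued with 5032 RPM in high dose 28-d, 4964 in middle dose 3-d, 4779 in high dose 7-d, 4572 in high dose 3-d, 4484 in low dose 3-d, 4464 in low dose 14-d, 3964 in control 3-d and 3834 in low dose 7-d. Middle dose groups thus took the top 2 places and low dose groups 3 of the lowest 4. Without control 3-d replicate 1, control 3-d had a mean of 5052 RPM, above 7 groups, and the ends of the range were unchanged.

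The mean level of miR-126a-5p ran from 11777 ± 5862 RPM in control 3-d to 24462 ± 1789 RPM in control 28-d, a 2.08-fold range. The low end rested on control 3-d replicate 1: without it control 3-d had a mean of 15146 RPM, above 2 dosed groups, and the range was 1.80-fold, from middle dose 3-d to control 28-d. In order the other groups had 23748 RPM in high dose 28-d, 21039 in low dose 3-d, 20058 in high dose 3-d, 19359 in control 14-d, 18630 in middle dose 28-d, 17643 in high dose 14-d and 17623 in low dose 14-d. Below these came low dose 28-d with 16830 RPM, middle dose 7-d with 16305, low dose 7-d with 16197, control 7-d with 16076, high dose 7-d with 16029, middle dose 14-d with 14937 and middle dose 3-d with 13592. Of the 15 neighbouring pairs 14 overlapped, and the exception was high dose 28-d above low dose 3-d.

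Among vehicle controls the 5p strand was higher at the later time points. Its levels were 5040, 14577 and 15715 RPM in control 3-d, 14696, 17363 and 16169 RPM in control 7-d, 20285, 18651 and 19143 RPM in control 14-d, and 22767, 24288 and 26332 RPM in control 28-d. The 14-d and the 28-d controls overlapped neither each other nor the earlier controls. In a single edgeR fit of all 48 libraries the difference among the 4 control groups had an adjusted p of 0.00163, in a test that called 101 of 301 miRNAs (33.6%). Control 28-d exceeded control 3-d by 1.05 ± 0.21 (log2, SE; edgeR adjusted p = 0.000623, 39.5% of all tested miRNAs called) and control 14-d exceeded control 3-d by 0.72 ± 0.21 (edgeR adjusted p = 0.0129, 20.9% called). Without control 3-d replicate 1 the difference among control groups kept an adjusted p of 0.00114 by edgeR. That between 28-d and 3-d was then 0.69 ± 0.15 (edgeR adjusted p = 0.00134), and that between 14-d and 3-d was 0.35 ± 0.14 and no longer passed (0.212).

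The 3p strand of the same controls was 1787, 5009 and 5094 RPM at 3-d, 4955, 5182 and 5051 RPM at 7-d, 5766, 5482 and 5060 RPM at 14-d, and 5392, 5895 and 6116 RPM at 28-d. These groups overlapped except for 28-d above 7-d and 3-d, and their difference over time did not pass the test (edgeR adjusted p = 0.166, and 0.693 without control 3-d replicate 1).

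Each dosed group was set against its time-matched controls to ask whether TAA altered either strand. A differentially expressed miRNA (DEM) had an unadjusted p below 0.05 and a fold change above 1.5 in edgeR's quasi-likelihood test. By this rule 0 of the 24 comparisons (2 strands in 12 conditions) were DEMs. An unadjusted p below 0.05 was reached in 6 of the 24, and a Benjamini-Hochberg adjusted p below 0.05 over the 301 miRNAs in 3. The DEM rule called 16.6%, 28.9%, 32.6% and 12.3% of all tested miRNAs at low dose over the 4 times in order, 2.99%, 15.9%, 17.3% and 32.9% at middle dose, and 11.3%, 21.3%, 9.3% and 15.3% at high dose. The adjusted p called 0%, 42.5%, 40.2% and 0.332% at low dose in the same order of time, 0%, 27.6%, 18.3% and 35.5% at middle dose, and 0%, 13.3%, 2.33% and 3.32% at high dose. Other tools and settings called 0 to 2 DEMs, and DESeq2's Wald test gave 0 DEMs and 5 adjusted calls. The shares of all tested miRNAs called under those settings are not given here. The 3 doses at a time point share the same 3 controls, so their values are given side by side.

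**Figure D2:**
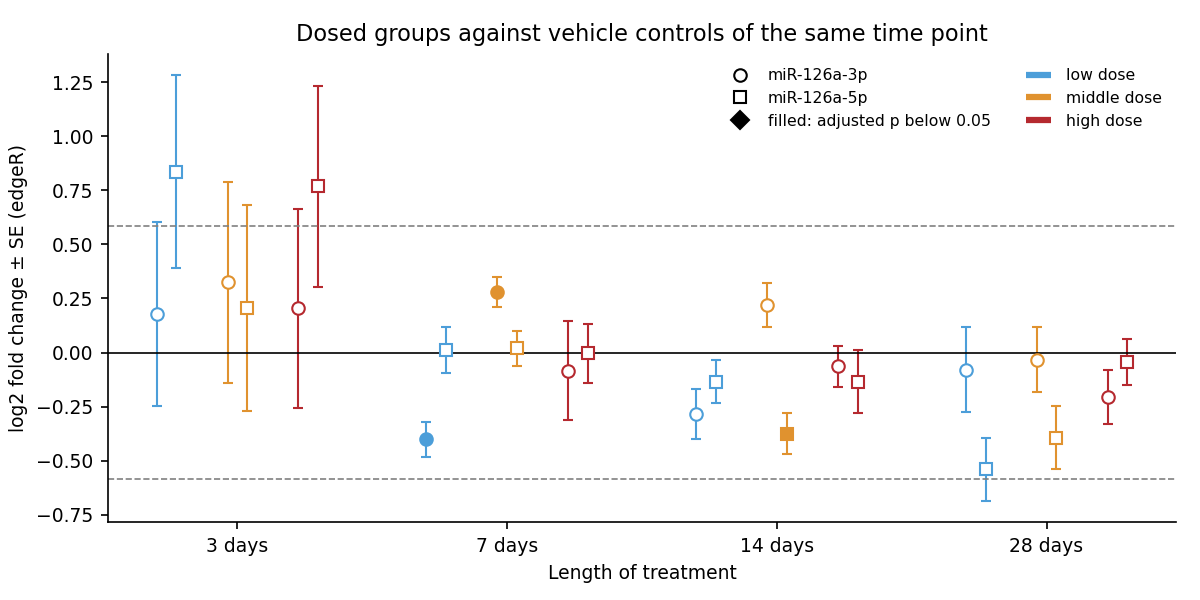
Log2 fold change of each dosed group against the vehicle controls of its time point (y axis, edgeR, whiskers SE) by length of treatment; circles are miR-126a-3p, squares miR-126a-5p, filled symbols have an adjusted p below 0.05 and dashed lines mark a fold change of 1.5. The filled symbols are 3p at low dose 7-d (-0.40) and middle dose 7-d (0.28) and 5p at middle dose 14-d (-0.37).

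At 7-d the 3p strand differed between doses, while the 5p values of every dose overlapped the controls. Levels of miR-126a-3p were 4955, 5182 and 5051 RPM in controls, 3918, 3920 and 3664 RPM at low dose, 6311, 5821 and 6311 RPM at middle dose, and 3688, 6641 and 4008 RPM at high dose. The low dose rats lay below every control, the middle dose rats above every control, and the high dose rats on both sides. It fell at low dose 7-d by 0.40 ± 0.08 (log2, SE; edgeR adjusted p = 0.00442) and rose at middle dose 7-d by 0.28 ± 0.07 (edgeR adjusted p = 0.0173), while high dose 7-d stood at -0.08 ± 0.23 (edgeR adjusted p = 0.824). Neither call held with all 12 controls pooled (edgeR adjusted p = 0.264 and 0.538) or in a single fit of all 48 libraries (0.187 and 0.557). That at middle dose 7-d was also lost without a filter on low values (edgeR adjusted p = 0.309) and when control 7-d replicate 4 or middle dose replicate 34 or 36 was left out (0.0564, 0.0637 and 0.066).

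The 3 doses at 7-d differed among themselves for miR-126a-3p (edgeR, single fit of 48 libraries, adjusted p = 0.0425, 25.9% of all tested miRNAs called), with middle dose above low dose by 0.68 ± 0.21 (edgeR adjusted p = 0.0147, 28.9% called). The difference among the doses was lost on leaving out any of the 6 low or middle dose rats of 7-d (edgeR adjusted p = 0.0705 to 0.12), and that between middle and low dose without low dose replicate 48 (0.0587). The 5p strand in the same rats was 16563, 14375 and 17654 RPM at low dose, 17135, 15395 and 16385 RPM at middle dose and 14025, 17556 and 16507 RPM at high dose. The log2 fold changes were 0.01, 0.02 and -0.0042. Their edgeR adjusted p-values were 0.952, 0.863 and 0.983.

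At 14-d the strands lay on opposite sides of the controls at the middle dose. Levels of miR-126a-3p were 6319, 6178 and 6481 RPM at middle dose 14-d against 5766, 5482 and 5060 RPM in controls, and those of miR-126a-5p 13891, 15362 and 15557 RPM against 20285, 18651 and 19143 RPM. The 3p values of middle dose rats were all above the controls and their 5p values all below. The fall of miR-126a-5p passed the test (-0.37 ± 0.09, edgeR adjusted p = 0.015), and the 3p difference of 0.22 ± 0.10 did not (edgeR adjusted p = 0.136). The 5p call was lost without a filter on low values (edgeR adjusted p = 0.0962), with library size alone (-0.20, 0.15), with all 12 controls pooled (0.692), in the single fit of all 48 libraries (0.303) and without middle dose replicate 31 (0.0501).

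At low dose 14-d miR-126a-3p was 4707, 4378 and 4308 RPM, below all 3 controls, with a log2 fold change of -0.28 ± 0.11 (unadjusted p = 0.0291 and adjusted p = 0.0668 by edgeR). Here miR-126a-5p was 17643, 18200 and 17026 RPM, also below all 3 controls (-0.14 ± 0.10, edgeR adjusted p = 0.304). High dose 14-d overlapped the controls for both strands, with 5010, 5183 and 5410 RPM of 3p and 14016, 17551 and 21363 RPM of 5p. The 3 doses at 14-d did not pass the test of a difference for 3p (edgeR adjusted p = 0.162, 29.2% of all tested miRNAs called, and 0.0818 for middle against low dose, 23.3% called) or for 5p (0.583), although 3p passed without control 3-d replicate 1 (0.0143).

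At 28-d it was the 5p strand that lay low in low and middle dose rats. Levels of miR-126a-5p were 22767, 24288 and 26332 RPM in controls, 16357, 18479 and 15653 RPM at low dose, 21315, 18757 and 15819 RPM at middle dose, and 22962, 24213 and 24070 RPM at high dose. Every low dose and middle dose rat was below every control, and the high dose rats were among the controls. The log2 fold change was -0.54 ± 0.15 at low dose 28-d (unadjusted p = 0.00602 and adjusted p = 0.151 by edgeR) and -0.39 ± 0.15 at middle dose 28-d (unadjusted p = 0.0217 and adjusted p = 0.0589 by edgeR), so neither passed the adjusted test. The difference at low dose 28-d became a DEM without control replicate 16 (-0.59) or without low dose replicate 29 (-0.61), and that at middle dose 28-d turned to 0.06 against all 12 controls. The doses at 28-d did not pass the test of a difference (5p, edgeR adjusted p = 0.177, 10.6% of all tested miRNAs called).

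For miR-126a-3p at 28-d the levels were 6176, 4326 and 5978 RPM at low dose, 5894, 6092 and 5020 RPM at middle dose and 5195, 5119 and 4781 RPM at high dose, beside 5392, 5895 and 6116 RPM in controls. Low and middle dose rats overlapped the controls. The high dose rats were all below them, with a log2 fold change of -0.21 ± 0.12 that did not pass the test (edgeR adjusted p = 0.315).

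At 3-d the sizes and standard errors of the differences depended on the control library with the lowest total. Levels of miR-126a-5p were 21609, 19227 and 22282 RPM at low dose, 12665, 16500 and 11610 RPM at middle dose, and 19255, 18313 and 22607 RPM at high dose, beside 5040, 14577 and 15715 RPM in controls. Low and high dose rats lay above every control with or without that library, and middle dose rats overlapped the controls. The log2 fold change was 0.84 ± 0.44 at low dose 3-d (edgeR adjusted p = 0.325) and 0.77 ± 0.47 at high dose 3-d (edgeR adjusted p = 0.476). Without control 3-d replicate 1 the low dose difference was 0.47 ± 0.10 and passed the test (edgeR adjusted p = 0.0211), and that at high dose was 0.41 ± 0.18 and did not (0.439). In the single fit of all 48 libraries, which shares 1 estimate of the spread, both were DEMs and passed the adjusted test (edgeR adjusted p = 0.00268 at low dose and 0.00614 at high dose). That fit includes control 3-d replicate 1. The shares of all tested miRNAs called in it, and in the fits without that library, are not given here, so these calls cannot be set against them. Upper quartile normalization left the median log2 fold change of all tested miRNAs at 0.16, 0.21 and 0.28 in the low, middle and high dose 3-d comparisons, at 0.14 in high dose 7-d and at 0.11 in low dose 14-d, and within 0.1 of 0 in the other 7.

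The 3p strand at 3-d was 4786, 4168 and 4499 RPM at low dose, 4840, 4584 and 5469 RPM at middle dose, and 4360, 4091 and 5264 RPM at high dose. Its log2 fold changes of 0.18, 0.32 and 0.21 were near the medians of all tested miRNAs, and were -0.17, -0.03 and -0.14 without control 3-d replicate 1, none of which passed the test in edgeR. Between doses at 3-d, the 5p strand had an adjusted p of 0.0582 by edgeR (16.6% of all tested miRNAs called) and of 0.00136 without that control, which enters this comparison of doses only through the shared estimate of spread.

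The 13 comparisons in which treated and control values overlapped had log2 fold changes between -0.13 and 0.32 and adjusted p-values of 0.686 or more by edgeR. The share of overlapping comparisons among all tested miRNAs was not counted. The size of the log2 fold change was below the median size of all 301 tested miRNAs in 10 of 12 conditions for miR-126a-3p and in 8 of 12 for miR-126a-5p. In the others the 3p strand exceeded 50.2% of miRNAs at low dose 7-d and 55.8% at middle dose 7-d. The 5p strand exceeded 71.4% at low dose 3-d, 74.1% at low dose 28-d, 64.8% at high dose 3-d and 56.8% at middle dose 14-d. Most of the 301 were less abundant, and no comparison at like abundance was made here either. The sizes ran from 0.03 to 0.40 for the 3p strand and from 0.0042 to 0.84 for the 5p strand.

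The difference of the 5p strand from its controls was compared between lengths of treatment. Mean levels at low dose were 21039, 16197, 17623 and 16830 RPM in order of time. Those of the controls rose from 11777 RPM at 3-d (15146 without control 3-d replicate 1) to 24462 RPM at 28-d. The rise of the controls thus enters each of these comparisons. On the log2 scale the difference was 0.84 after 3 days of low dose, 0.01 after 7 days, -0.14 after 14 days and -0.54 after 28 days. These effects differed over time in the single fit of 48 libraries (edgeR adjusted p = 0.0307, 4.98% of all tested miRNAs called), and in the fit without control 3-d replicate 1 (0.0334). This was lost on leaving out any low dose 3-d rat or low dose 14-d replicate 42 (edgeR adjusted p = 0.0527 to 0.118) and without a filter on low values (0.0561). The effect at 28-d was lower than that at 3-d by 1.38 ± 0.30 (edgeR adjusted p = 0.0049, 5.32% called) and the effect at 14-d lower than that at 3-d by 0.97 ± 0.30 (edgeR adjusted p = 0.035, 9.3% called), while the 7-d effect, lower by 0.83 ± 0.30, did not pass (0.126, 1.99% called). Leaving out control 3-d replicate 1, the 28-d effect was lower by 1.01 ± 0.19 (edgeR adjusted p = 0.0024) and the 14-d effect by 0.61 ± 0.19, which did not pass (0.202). The call at 14-d was also lost on leaving out any of 8 other single libraries (0.0524 to 0.0765).

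For miR-126a-5p at high dose (edgeR adjusted p = 0.0634, 21.3% called) and at middle dose (0.379, 0.997% called) the change over time did not pass. At high dose, where the effects were 0.77, -0.0042, -0.13 and -0.04 in order of time, the 14-d effect was lower than the 3-d effect by 0.90 ± 0.30 and passed (edgeR adjusted p = 0.0276, 22.3% called). The 7-d and 28-d effects were lower by 0.77 ± 0.30 and 0.81 ± 0.30 and did not pass (edgeR adjusted p = 0.112, 6.64% called, and 0.063, 8.64% called). The 14-d effect was lower by only 0.54 ± 0.19 and did not pass without control 3-d replicate 1 (edgeR adjusted p = 0.0638), and it was also lost without high dose 14-d replicate 7, control 14-d replicate 13 or high dose 3-d replicate 24 (0.0586 to 0.0963). The middle dose effects of the later times were lower than at 3-d by 0.19 (7-d), 0.58 (14-d) and 0.60 (28-d), none of which passed (edgeR adjusted p = 0.805, 0.208 and 0.189, with 0%, 0.997% and 4.98% called). Low and high dose were not tested against each other in their change over time. For miR-126a-3p the adjusted p-values by edgeR were 0.433, 0.805 and 0.67 at low, middle and high dose.

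Pooling the 9 dosed rats of a time point against its 3 controls gave no difference with p below 0.05 for either strand or their ratio. The 5p strand was higher at 3-d by 0.76 on the log2 scale (exact permutation test, 2-sided p = 0.05, 7 of 9 dosed rats above all controls), at -0.22 at 14-d (exact permutation p = 0.0818, 8 of 9 below all controls) and at -0.33 at 28-d (exact permutation p = 0.0591, 6 of 9 below). These 3 had a Benjamini-Hochberg adjusted p of 0.409 over the 15 tests of the family, and 0.00455 is the smallest p that 220 arrangements allow. Without control 3-d replicate 1 the 3-d difference was 0.23 (exact permutation p = 0.418). Over all time points, with labels permuted within each, the difference was 0.04 for the 3p strand (p = 0.727) and 0.06 for the 5p strand (p = 0.653) by permutation.

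The ratio of the strands needs no scaling between libraries, since both are counted in the same one. There were 2.12 to 5.03 reads of 5p per read of 3p (median 3.61), and the 3p strand was 16.6% to 32.02% of the miR-126a reads. In control 3-d replicate 1, with the fewest reads, this share was 26.2% (95% Wilson interval 24.5 to 28.0, counting error only), and its ratio of 2.82 lay next to the 2.91 and 3.08 of the other control 3-d rats. The library that stood apart in level thus did not stand apart in ratio.

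**Figure D3:**
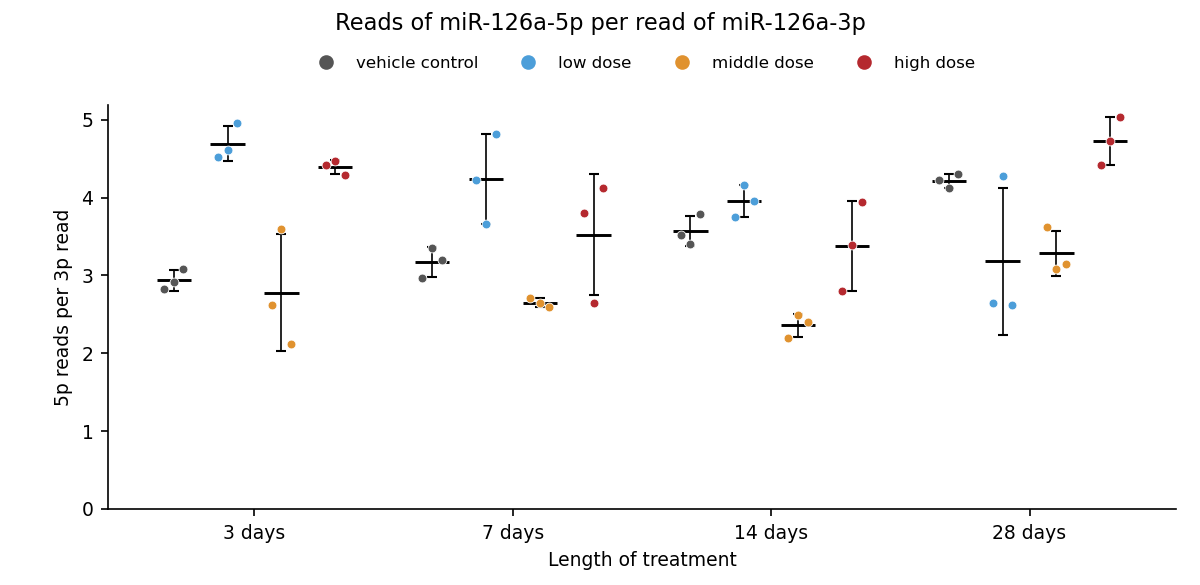
Reads of miR-126a-5p per read of miR-126a-3p (y axis, from 0) in every library by length of treatment and dose; points are single rats, bars the mean and whiskers the SD of 3 rats. Group means lie between 2.36 (middle dose 14-d) and 4.73 (high dose 28-d), and the controls are highest at 28 days.

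The group mean of the ratio was highest in high dose 28-d (4.73 ± 0.31), low dose 3-d (4.69 ± 0.23), high dose 3-d (4.40 ± 0.09), low dose 7-d (4.24 ± 0.58) and control 28-d (4.22 ± 0.09). It was lowest in middle dose 14-d (2.36 ± 0.15), middle dose 7-d (2.65 ± 0.06), middle dose 3-d (2.78 ± 0.75) and control 3-d (2.94 ± 0.13). Of the 15 neighbouring pairs in that order 13 overlapped, and the exceptions were low dose 3-d above high dose 3-d and middle dose 7-d above middle dose 14-d. The spread was largest in low dose 28-d, where 2 rats had 2.65 and 2.62 reads of 5p per read of 3p and the other had 4.27.

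Among controls the ratio was 2.82, 2.91 and 3.08 after 3 days, 2.97, 3.35 and 3.20 after 7 days, 3.52, 3.40 and 3.78 after 14 days, and 4.22, 4.12 and 4.31 after 28 days. The controls of 14-d and of 28-d did not overlap those of any other time. This order over time was not tested for the ratio.

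The log2 ratio of 5p to 3p was tested in limma beside the ratios of 100 precursors with both strands among the tested miRNAs. At low dose 7-d it was 4.23, 3.67 and 4.82 reads per read against 2.97, 3.35 and 3.20 in controls, higher in each rat, with a log2 difference of 0.41 ± 0.16 (limma adjusted p = 0.0472, 55% of precursors called). At middle dose 14-d it was 2.20, 2.49 and 2.40 against 3.52, 3.40 and 3.78, lower in each rat, with a log2 difference of -0.60 ± 0.15 (limma adjusted p = 0.026, 17% called). These 2 of 12 conditions passed. Against all 12 controls neither did (limma adjusted p = 0.227 and 0.0556), that at low dose 7-d was lost in a single fit of all 48 libraries (0.103), and each was lost on leaving out any of 5 single libraries (p up to 0.144 and 0.12).

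In 5 other conditions the ratio did not overlap that of the controls and did not pass the test in the fit of 6 libraries. It was higher at low dose 3-d (4.52, 4.61 and 4.95, log2 difference 0.68 ± 0.22, limma adjusted p = 0.208, 0% called), at high dose 3-d (4.42, 4.48 and 4.29, 0.58 ± 0.25, 0.609, 0% called) and at high dose 28-d (4.42, 4.73 and 5.03, 0.16 ± 0.15, 0.533, 3% called). It was lower at middle dose 7-d (2.72, 2.64 and 2.60, -0.26 ± 0.12, limma adjusted p = 0.124, 32% called) and at middle dose 28-d (3.62, 3.08 and 3.15, -0.36 ± 0.17, 0.161, 13% called). How many of the 100 precursors had no overlap was not counted. Larger log2 differences were found in 49 precursors at low dose 3-d, 44 at high dose 3-d and 66 at high dose 28-d. At middle dose 7-d and 28-d they were found in 48 and 52. In the 2 conditions that passed they were found in 60 (low dose 7-d) and 25 (middle dose 14-d). Without control 3-d replicate 1 the ratio at low dose 3-d passed (0.65 ± 0.15, limma adjusted p = 0.0166), and that at high dose 3-d did not (0.55 ± 0.21, 0.249). In the single fit of all 48 libraries low dose 3-d and high dose 3-d both passed (limma adjusted p = 0.00424, 47% called, and 0.0177, 21% called), as did middle dose 14-d (0.0337, 6% called), so that 3 of 12 conditions were called there.

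The remaining 5 conditions overlapped their controls. Their log2 differences were 0.15 at low dose 14-d (limma adjusted p = 0.364, 48% called), -0.45 at low dose 28-d (0.56, 0% called), -0.11 at middle dose 3-d (0.876, 0% called), 0.13 at high dose 7-d (0.812, 1% called) and -0.09 at high dose 14-d (0.87, 1% called). The middle dose was thus below the controls in mean ratio at each time point, by 0.11 to 0.60 on the log2 scale, with 1 of these 4 differences past the test. The one at 3-d turned to 0.06 without middle dose 3-d replicate 12, and was -0.14 without control 3-d replicate 1 (limma adjusted p = 0.973).

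An excess of the 5p strand was not unusual, since 62 of the 100 precursors had more 5p than 3p reads by median. The SD of the miR-126a log2 ratio over the 47 libraries other than control 3-d replicate 1 was 0.34, against a median of 0.45 over the 100 precursors, and within groups it was 0.19 against 0.43. Here too no comparison at like abundance was made. The log2 ratio of miR-126a had a Spearman's rho above 0.5 with that of 12 of the 99 other precursors and below -0.5 with that of 13, as a description over libraries that share their preparation. The extremes were mir-28 (rho 0.75) and mir-143 (rho -0.78).

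**Figure D4:**
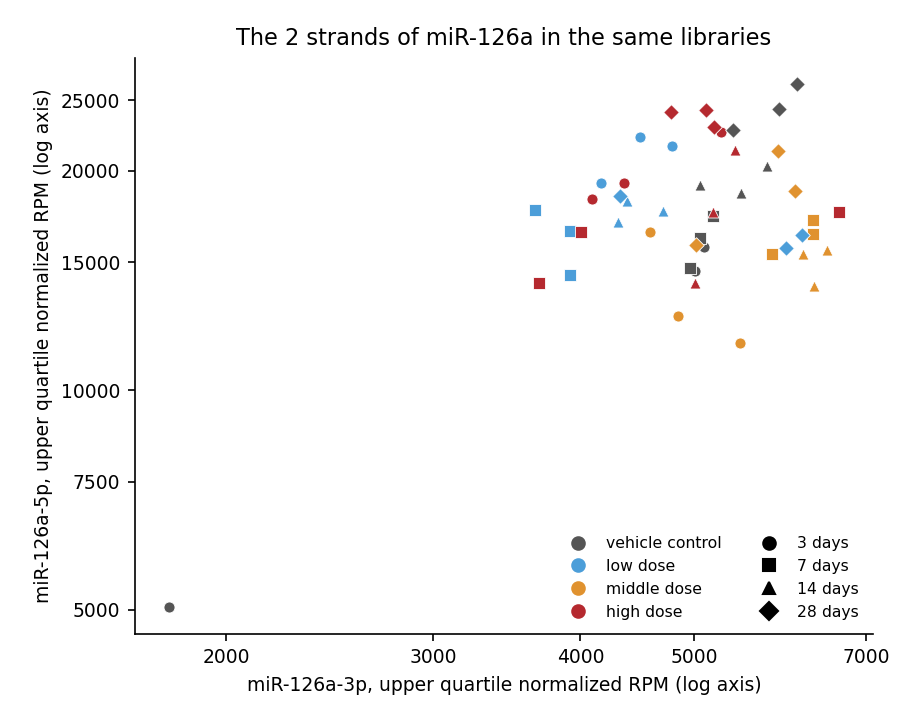
Level of miR-126a-5p (y axis) against that of miR-126a-3p (x axis) in each of the 48 libraries, in upper quartile normalized RPM on log axes; colour gives the dose and shape the length of treatment. Control 3-d replicate 1 lies alone at the lower left, and the other 47 libraries form a cloud with Pearson's r of 0.07.

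Over the libraries the levels of the strands hardly followed each other. Pearson's r of the log2 levels was 0.53 (permutation p = 0.00705, n = 48) and Spearman's rho 0.07 (permutation p = 0.627). Without the 2 libraries farthest from the median of miR-126a-3p, control 3-d replicate 1 and low dose 7-d replicate 48, r was 0.08. With only control 3-d replicate 1 left out it was 0.07, so the relation rested on that library. Within groups r was 0.75. Without control 3-d replicate 1 the r within groups was 0.25, and 0.34 with TMM scaling and 0.40 with library size alone. Adjusted over 3 relations the permutation p-values were 0.0106 for r and 0.91 for rho. The permutations shuffled all 48 libraries, although rats of a group share dose and time.

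The strand ratio was lower in libraries with a larger upper quartile factor, which reflects the make-up of a library (r = -0.58, permutation p = 3e-05, adjusted 9e-05, and rho = -0.60, permutation p = 1e-05, the smallest that 100000 permutations give, adjusted 3e-05). Without the 2 libraries with the farthest factors r was -0.60, and within groups it was -0.26. Here too all 48 libraries were shuffled, so the p-values do not allow for the groups, and the relation within groups was not tested. Library total and ratio had r = 0.12 (permutation p = 0.493) and rho = -0.02 (permutation p = 0.91). Whether library make-up has a part in the ratio was not tested.

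The miRNAs whose level was most like each strand differed. For miR-126a-3p the 5 highest Spearman's rho over 48 libraries were those of miR-145-3p (0.86), a smooth muscle and stellate cell miRNA, miR-99a-5p (0.78), miR-125b-5p (0.77), miR-143-5p (0.77) and miR-450b-5p (0.76). For miR-126a-5p they were those of miR-30d-3p (0.76), miR-144-3p (0.75), a miRNA of red blood cells, miR-193a-3p (0.71), miR-33-5p (0.70), which lies in the sterol regulator gene Srebf2, and miR-32-5p (0.68). Each strand was far down the order of the other, at place 115 for miR-126a-3p and 143 for miR-126a-5p. Without control 3-d replicate 1 the 10 rho were between 0.66 and 0.87. Within groups, after subtracting the group mean, the 10 rho were between 0.41 and 0.69, with that library included. The rho of the strands with each other was then 0.41, so the order above rests in part on differences between groups.

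A list of 22 other miRNAs studied in endothelium and vessel growth was examined beside the strands, and all 22 were tested. Over 12 conditions 20 of 264 comparisons were DEMs with a higher level and 15 with a lower level in dosed rats, 13.3% in all, against 436 higher and 216 lower of 3612 (18.1%) for all tested miRNAs. The median log2 fold change of the list ran from -0.13 at high dose 14-d to 0.45 at high dose 3-d, where that of all tested miRNAs was -0.04 and 0.28. The comparisons of the list at 3-d include control 3-d replicate 1 and were not repeated without it. The summed level of the list was between 77181 and 115955 RPM in 47 libraries and 115221 RPM in control 3-d replicate 1, with miR-132-3p and miR-155-5p at 0 there.

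The list's most often called members are named here, and miR-18a-5p tied with the last 4. First, miR-132-3p, a miRNA induced by angiogenic growth factors, was a DEM with a higher level in 6 of 12 conditions, with log2 fold changes of 1.97 at high dose 7-d (edgeR adjusted p = 0.00405) and 1.42 at middle dose 28-d (0.00101). Its median was only 6.15 RPM. Among the 6 was high dose 3-d (1.74, edgeR adjusted p = 0.4), against controls that include control 3-d replicate 1, where its count was 0. The level of miR-100-5p was called higher in 3 conditions, all at middle dose, by 2.85 at 7-d, 2.40 at 14-d and 2.23 at 28-d (edgeR adjusted p = 2.17e-05, 3.64e-06 and 1.7e-05). It was not called at high dose 7-d (1.80 ± 0.87, edgeR adjusted p = 0.23), low dose 28-d (1.43 ± 0.64, 0.356) or low dose 14-d (-0.53 ± 0.21, 0.0588). The DEM rule called miR-155-5p, a miRNA of activated leukocytes as well as endothelium, higher in 3, with 1.30 at high dose 7-d (edgeR adjusted p = 0.00742). Its call at high dose 3-d (2.47, edgeR adjusted p = 0.4) also included control 3-d replicate 1, where its count was 0. The rule called miR-23b-3p lower in 3, with -0.75 at middle dose 28-d (edgeR adjusted p = 0.0104), and miR-19a-3p lower in 2 and higher in 1, with -1.53 at low dose 7-d and 0.95 at middle dose 28-d (0.000211 and 0.00737). These members were chosen by a rule that needs a fold change above 1.5, so their sizes cannot be set against those of the strands.

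Markers of other liver cells are given beside the strands, and their part in the values was not tested. Their calls at 3-d also include control 3-d replicate 1. The level of miR-122-5p rose at low dose 7-d and 14-d by 0.75 and 0.67 (log2; edgeR adjusted p = 0.000233 and 0.00372), where miR-126a-3p stood at -0.40 and -0.28. It fell at middle dose 7-d by 0.32 and at middle dose 28-d by 0.61 (edgeR adjusted p = 0.0207 and 0.0164), where miR-126a-3p stood at 0.28 and -0.03. The 4 red blood cell miRNAs were DEMs with a lower level in 20 of 48 comparisons and with a higher level in 1, 43.8% in all against the 18.1% of all tested miRNAs. Their summed level had group medians from 1783 RPM at middle dose 7-d to 6781 RPM in control 3-d, and by single miRNA miR-144-3p was lower in 5 conditions and higher in 1, and miR-486 lower in 5.

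The 4 leukocyte miRNAs had 6 lower calls and 1 higher of 48 (14.6%, against 18.1% for all tested miRNAs), with miR-150-5p lower in 4 conditions and miR-223-3p in 2. The 5 liver parenchyma miRNAs had 6 lower and 2 higher of 60 (13.3%), with miR-122-3p lower in 5. The 6 stellate or smooth muscle miRNAs had 8 lower and 6 higher of 72 (19.4%), with miR-145-5p lower in 4 and miR-199a-5p higher in 3 and lower in 1. The 5 bile duct miRNAs had 8 lower and 5 higher of 60 (21.7%), with miR-429 lower in 4 and miR-200c-3p higher in 4. Of 6 muscle miRNAs 2 were tested, with 4 lower calls of miR-133a-3p and 3 higher of miR-499-5p (29.2% of 24), and the list summed to at most 43 RPM in any library.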

How the data were processed

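Small RNA libraries of 48 livers were analysed, 1 per rat, grouped by the dose and time point in the sample labels. The deposited values are raw counts, which the authors made after removing adaptors and reads outside miRNA length by counting per mature miRNA and precursor with the miRDeep2 pipeline on miRBase, with no normalization, filter or pooling. The submitters' processing notes name FastQC and the rn5 build. Where a mature miRNA was listed for several precursors, the precursor with the most reads was used.

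Levels were tested with R 4.3.3 and edgeR 4.0.16 (quasi-likelihood F-test after upper quartile normalization) on the 301 miRNAs with at least 5 RPM in at least 3 libraries, in a fit of the 6 libraries compared. Standard errors came from the log2 fold change and F. Differences among doses, time points or control groups came from 1 fit of all 48 libraries. Strand ratios, log2 of 5p over 3p with 0.5 added to both counts (written as 3p over 5p in the plan, which only turns the sign), were tested with limma 3.58.1 beside 100 precursors. Pooled doses were compared by exact permutation. An exact permutation test of 3 rats against 3 cannot go below p = 0.1, so none was run. Adjusted p-values are Benjamini-Hochberg over all miRNAs or precursors tested.

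The members and the lists (endothelium-linked, liver parenchyma, red blood cells, leukocytes, stellate cells or smooth muscle, bile duct and muscle) were chosen with earlier results of these data known. The text names the miR-126 names, the 5 miRNAs most like each strand, the most often called members of each list and miR-122-5p. Alternatives were other scalings (TMM, DESeq2's size factors, library size alone), other filters (none, or 5 RPM in every library), other tests (edgeR's exact test, DESeq2 1.42.0), pooling all 12 controls, a single fit, other pseudocounts, other measures of likeness and each library left out. The tests were tested on simulated data. Python 3.11.15, pandas 2.3.3, numpy 2.4.6, scipy 1.17.1 and matplotlib 3.10.9 were used.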

Additional observations from a re-analysis of the deposited data

Results flagged for a closer look

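Differences between doses and between time points met the rules for a closer look, and chance gives some of them among this many comparisons. For miR-126a-3p the doses at 7-d differed among themselves (edgeR adjusted p = 0.0425), and this was lost on leaving out any of the 3 low dose or 3 middle dose rats of 7-d (0.0705 to 0.12). For miR-126a-5p the low dose effect differed over time (edgeR adjusted p = 0.0307), and this was lost on leaving out any low dose 3-d rat or low dose 14-d replicate 42 (0.0527 to 0.118) and without a filter on low values (0.0561).

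In 6 further cases every dosed rat of one group was above its controls and every dosed rat of another was below. How often other miRNAs or precursors met this rule was not counted. For miR-126a-3p the log2 difference of the effects, from group means, was 0.68 between middle and low dose at 7-d (edgeR adjusted p = 0.0147 for the difference of the doses) and 0.50 at 14-d (edgeR adjusted p = 0.0818, 23.3% of all tested miRNAs called). For miR-126a-5p it was 1.38 between low dose 3-d and low dose 28-d (edgeR adjusted p = 0.0049) and 0.97 between low dose 3-d and low dose 14-d (edgeR adjusted p = 0.035), which was 0.61 without control 3-d replicate 1 and did not pass (0.202). For the strand ratio it was 0.68 between low and middle dose at 7-d and 0.53 between high and middle dose at 28-d, and these differences of the ratio were not tested.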

How the results depend on the processing

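The count of DEMs among the 24 level comparisons was 0, 1 with at least 5 RPM in every library (miR-126a-5p, low dose 28-d), 2 in a single fit of all 48 libraries (miR-126a-5p, low and high dose 3-d) and 0 to 1 on leaving out single libraries (1 without control 28-d replicate 16 or low dose 28-d replicate 29). Adjusted calls numbered 3, 5 with TMM, DESeq2's size factors, library size alone, at least 5 RPM in every library or DESeq2's Wald test, 0 with all 12 controls pooled and 2 to 4 on leaving out single libraries. These counts stand without the shares of all tested miRNAs called under each setting, which are not given here. The log2 fold change of miR-126a-5p at middle dose 28-d was 0.056 with all 12 controls pooled (adjusted p = 0.919). The 13 comparisons with overlapping values gave 195 alternative values, of which 50 had the other sign and 0 passed the adjusted test.

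Pooled doses gave 0 strand differences with p below 0.05, 1 with TMM or DESeq2's size factors (miR-126a-5p at 28-d, exact permutation p = 0.0273 and 0.0318) and 0 to 1 on leaving out single libraries (1 without high dose 14-d replicate 9, middle dose 3-d replicate 10 or 12, or high dose 28-d replicate 20). Over all time points the pooled difference was -0.024 (3p) and -0.0044 (5p) with TMM, -0.048 and -0.029 with DESeq2's size factors, and -0.089 to 0.0995 and -0.077 to 0.13 on leaving out single libraries, negative without control 3-d replicate 1. Differences among doses or time points numbered 3 of 16 tests, 5 with DESeq2's size factors and 2 to 6 on leaving out single libraries (6 without control 3-d replicate 1 or 3, 5 without replicate 2), and the middle dose effect on miR-126a-5p at 7-d less that at 3-d was -0.45 to 0.18. For the strand ratio 2 of 12 conditions passed, 0 with all 12 controls pooled, 3 in the single fit of all 48 libraries (low and high dose 3-d and middle dose 14-d) and 1 to 3 on leaving out single libraries, pooled doses gave 0 to 1 (1 without middle dose 3-d replicate 12), and the differences at middle dose 3-d and high dose 14-d were -0.32 to 0.064 and -0.21 to 0.037. Of the 5 miRNAs nearest to miR-126a-3p, 2 were kept with Pearson's r, 1 over 16 group means, 3 with TMM and 2 with library size alone, and of those nearest to miR-126a-5p, 1, 3 and 3 with Pearson's r, group means and library size alone.

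The cause of these changes was not tested. With 3 rats per group and libraries of 4829217 counts or more outside control 3-d replicate 1, both strands had 25224 reads or more in each library, and the number of rats limits the precision. Low levels of miR-126b could not be compared at this depth. No paired analysis was possible because each library carries a replicate number of its own.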
